A study of Mus musculus with 32 samples.

Results

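The Apoa1-Apoc3-Apoa4-Apoa5 gene cluster on mouse chromosome 9 was examined for HNF4A binding in jejunal intestinal epithelial cells (IECs) after a high-fat meal (HFM). HNF4A ChIP-seq peak lists were available for 4 germ-free mice given the meal (GF+HFM) and 4 ex-germ-free mice that had been colonized with a conventional microbiota for 14 days and then given the meal (CV+HFM). All were male C57BL/6J mice of 10 to 12 weeks with free access to chow, gavaged with an egg yolk emulsion and sampled 2 hours later. The labels name no mutation or transgene, and each library came from the jejunum of a single mouse. The IEC preparations were not sorted and hold some crypt and mesenchymal cells beside villus epithelium, so fewer HNF4A-expressing cells and less HNF4A per cell cannot be told apart. Overlapping peaks of the 8 lists (1 bp or more in common) were joined into 45552 sites, and the 17 sites within the bodies of the 4 genes or 20 kb either side were kept, from 46016663 to 46100002 of chromosome 9 (mm9). A library with any peak in a site was said to call it.

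The cluster encodes small proteins that coat lipoproteins and direct the transport of fat from the intestine and liver. APOA1 is the main protein of high-density lipoprotein, APOA4 is made by enterocytes during fat absorption and leaves with chylomicrons, APOC3 slows the clearance of triglyceride by inhibiting lipoprotein lipase, and APOA5, made mainly in liver, promotes that clearance. HNF4A is a nuclear receptor of enterocytes and hepatocytes that binds DNA as a dimer at direct repeats with a single base between the half-sites (DR1), and the region before Apoc3 has long been known as an enhancer of the cluster that binds nuclear receptors.

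Genes are given on mm9 with GENCODE M1. Apoa1 lies on the plus strand from 46036663 to 46038549, Apoc3 on the minus strand from 46041016 to 46043719, Apoa4 on the plus strand from 46048779 to 46051542 and Apoa5 on the plus strand from 46076716 to 46080002. The window also holds the end of Sik3, a kinase gene, all of Zfp259, which encodes a zinc finger protein, the start of Bud13, which encodes a splicing factor, and Gm10680, a processed transcript that overlaps the end of Apoa4 on the other strand.

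Of the 17 sites, 5 were called in all 8 libraries, that is, in every mouse. From left to right they lay at the end of Sik3, 4294 bp before the start of Apoa1, then 1318 bp before Apoa1, at the start of Apoc3, at the start of Apoa4 and in intron 2 of Apoa4. Distances are from the middle of the bases that a peak of every calling library covers. Reference sequence is shown for those shared bases, since they are the DNA that each library placed under a peak, together with the shared bases of the sites nearest to the starts of Apoa1 and Apoa5. All sequences are the plus strand of mm9, and capitals mark matches to the DR1 repeat AGGTCANAGGTCA with at most 2 mismatches or to the shorter HNF4A element CAAAGTCCA. At the Apoc3 start and Apoa4 intron sites no match lay inside the shared bases, and the sequence was extended to the nearest match in the same site, a choice made after the matches were seen.
Sik3 end, chr9:46032313-46032426: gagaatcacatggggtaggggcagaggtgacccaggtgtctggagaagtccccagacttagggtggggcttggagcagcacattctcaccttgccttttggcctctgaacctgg
Before Apoa1, chr9:46035196-46035495, the central 300 bases: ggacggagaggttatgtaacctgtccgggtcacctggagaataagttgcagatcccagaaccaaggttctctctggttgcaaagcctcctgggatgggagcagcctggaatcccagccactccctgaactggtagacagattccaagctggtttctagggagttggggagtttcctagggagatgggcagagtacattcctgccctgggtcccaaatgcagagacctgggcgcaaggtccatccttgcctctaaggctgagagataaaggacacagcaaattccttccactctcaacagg
Apoa1 start, chr9:46036557-46036794: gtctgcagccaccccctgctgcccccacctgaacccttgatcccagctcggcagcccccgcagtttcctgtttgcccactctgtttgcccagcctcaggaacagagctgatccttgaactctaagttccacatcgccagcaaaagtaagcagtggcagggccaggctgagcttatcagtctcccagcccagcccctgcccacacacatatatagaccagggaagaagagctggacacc
Apoc3 start, chr9:46043742-46043907: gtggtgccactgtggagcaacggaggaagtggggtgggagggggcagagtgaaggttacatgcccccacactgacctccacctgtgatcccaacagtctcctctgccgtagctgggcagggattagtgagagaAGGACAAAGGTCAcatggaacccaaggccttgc
Apoa4 start, chr9:46048759-46048951: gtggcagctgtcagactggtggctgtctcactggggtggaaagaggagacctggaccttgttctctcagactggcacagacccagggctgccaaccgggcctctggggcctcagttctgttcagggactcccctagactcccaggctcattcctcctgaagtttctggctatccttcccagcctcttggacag
Apoa4 intron 2, chr9:46050051-46050167: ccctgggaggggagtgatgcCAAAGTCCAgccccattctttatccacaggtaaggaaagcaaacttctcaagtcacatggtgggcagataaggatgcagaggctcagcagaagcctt
Before Apoa5, chr9:46073611-46073816: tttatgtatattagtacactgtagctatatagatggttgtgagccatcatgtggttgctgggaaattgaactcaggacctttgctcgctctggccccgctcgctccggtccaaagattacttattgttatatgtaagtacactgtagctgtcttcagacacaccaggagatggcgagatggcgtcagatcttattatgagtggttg

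The shared bases at the start of Apoc3 ran for 107 bp from 46043742 to 46043848, just before the gene. The DR1 match in capitals, AGGACAAAGGTCA, differed from the repeat at 1 position and was centered 162 bp before the start of Apoc3. It lay under a peak in 7 libraries, and the narrow peak of CV+HFM replicate 4 ended before it. A second match, TGGGCAAAGGTCA with 2 mismatches, lay 258 bp inside the annotated gene and was covered by the same 7 libraries. Both distances are from the outermost end of the gene record, which holds 4 transcripts, and starts of single transcripts were not compared. Of windows as long as this site, 1328 bp, at 45323 merged sites, 6.30% held a DR1 match with at most 1 mismatch. In the intron of Apoa4, the shared bases were only 27 bp long, from 46050141 to 46050167, and the element CAAAGTCCA lay 79 bp to the left of their middle. The element was covered in the same 7 libraries, and an exact copy of it occurred in 7.17% of 904 bp windows at the same merged sites.

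Searched on both strands within 100 bp of the mean midpoint of the peaks, each motif was found at a single cluster site. A DR1 with at most 2 mismatches occurred at 1 of the 17 sites (5.88%), against 13.8% of 45324 merged sites, and CAAAGTCCA at 1 of 17, against 5.50%. The 228 merged sites left out were 227 on unplaced sequence that is not in the reference used here and 1 whose window held an unknown base or passed a chromosome end. These counts were not tested against other sites. Among the 11 sites called in all 4 GF+HFM libraries, 0 held the DR1 and 1 held the element, where 15.0% and 6.71% of such sites across the genome did. The DR1 match was at a site in intron 20 of Sik3 that 3 GF+HFM libraries and CV+HFM replicate 3 called. That site held 2 matches separated by 1 base, AGGCCAGAGGCCA on the plus strand and TGGCCAAAGGTCA on the minus strand. The windows of the 17 sites had a median GC content of 52.2%, with a range from 45.3% to 60.7%, and the median over the 45324 merged sites was 48.8%. A match gives letters in the reference and not a bound element, and sites without a match may hold other forms of the element.

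Along the chromosome, the sites were concentrated around Apoa1, Apoc3 and Apoa4. In the 18.7 kb from the end of Sik3 to the body of Apoa4 there were 9 sites, each called in all 4 GF+HFM libraries. Of these, 5 were called in all 8. Over all merged sites, the shares called so were 50.6% and 7.56%. The stretch was taken from the left edge of its first site to the right edge of its last, which raises its covered share. The 9 sites covered 53.1% of that stretch. Peaks of single libraries covered 36.9%, 35.6%, 44.6% and 50.5% of it in GF+HFM replicates 1 to 4. In CV+HFM replicates 1 to 4 the covered share was 37.6%, 11.9%, 27.9% and 4.62%. CV+HFM replicate 1 was within the range of the GF+HFM libraries, and the other CV+HFM libraries were below all of them. The next 22.8 kb, up to the site before Apoa5, held 3 sites that were each called in 1 library only, as were 21.6% of all merged sites. Around Apoa5 itself the window held 3 sites, of which 0 were called in all 8 libraries. With 7.56% over all merged sites, 3 sites are too few for this count to set Apoa5 apart.

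**Figure D1:**
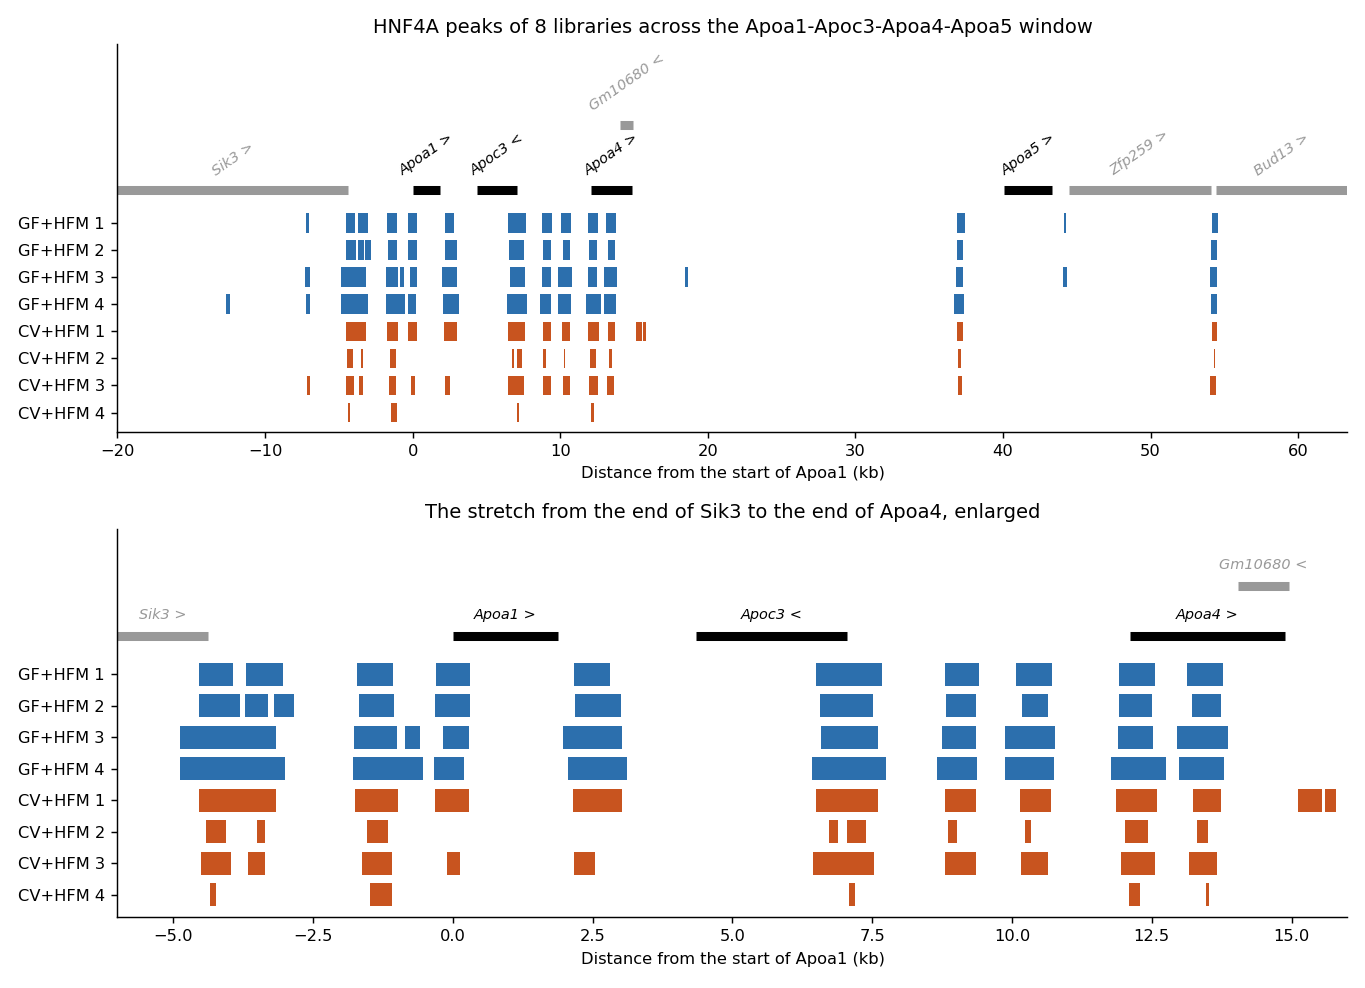
HNF4A peaks in the 8 libraries, 1 row per mouse, along the distance from the start of Apoa1 in kb, with genes above and an arrowhead for their strand. Colored boxes are peaks (blue GF+HFM, orange CV+HFM), black bars are the 4 apolipoprotein genes and gray bars the other genes. The upper panel shows the whole window and the lower panel the stretch with 9 sites, in which CV+HFM 4 had peaks at 5 sites.

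The counts over the 17 sites differed from those over all merged sites. In the cluster, 5 of 17 sites (29.4%) were called in all 8 libraries, compared with 7.56% of all merged sites. CV+HFM replicate 4, with the shortest list, set this number, and without it 9 of 17 (52.9%) were called in the other 7 libraries, compared with 18.4% of all sites. With peaks of at least 300 bp only, 1 of 14 cluster sites was called in all 8, compared with 0.772%. All 4 GF+HFM libraries called 11 of the 17 (64.7%), compared with 50.6%. Each of those 11 was also called in at least 2 CV+HFM libraries, as were 17523 of the 23049 such sites across the genome. Counted over all sites, 11 of 17 (64.7%) in the cluster and 38.5% of all merged sites had both properties. Sites called in 1 library made up 4 of 17 (23.5%), near the 21.6% over all sites. At 2.79% of all sites every GF+HFM library but no CV+HFM library had a call, and 0 of the cluster sites showed this pattern. More GF+HFM than CV+HFM libraries called 10 of the 17 sites (58.8%), compared with 86.5% of all sites, 5 were called equally often and 2 only in CV+HFM replicate 1. These shares describe 17 neighboring sites of the same libraries and were not tested against the genome. Over the 17 sites, two-sided p from Fisher's exact test of calls in 4 and 4 libraries ranged from 0.429 to 1. The smallest p this test allows is 0.0286, and after Benjamini-Hochberg adjustment over all 45552 sites no site of the genome went below 0.824. To pass 0.05 after adjustment, most sites of the genome would have to reach that smallest p, and 2.79% did. The adjusted test could therefore not single out any site, and no conclusion is drawn from it. The paper compared read counts with DiffBind and shows the Apoa1 locus as an example of significantly differential HNF4A binding. Its legend refers to panels of the colonization and the meal comparisons and does not say which of them applies at that locus. The paper describes HNF4A occupancy as generally lower with microbes and generally higher after the meal, a behavior that appeared alike at most sites. Calls of a peak hold no read counts and cannot test differential binding at Apoa1.

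The longest merged site of the cluster, 2042 bp, lay at the end of Sik3. The site ran from 46031785 to 46033826 and overlapped exon 21, the last exon of Sik3, while its shared bases lay beyond the gene. Its summed peak width was 1272, 1522, 1713 and 1884 bp in GF+HFM replicates 1 to 4 and 1376, 491, 834 and 114 bp in CV+HFM replicates 1 to 4. CV+HFM replicate 1 exceeded GF+HFM replicate 1, so the groups overlapped. The site was a single peak in GF+HFM replicates 3 and 4 and CV+HFM replicates 1 and 4, 2 peaks in GF+HFM replicate 1 and CV+HFM replicates 2 and 3, and 3 peaks in GF+HFM replicate 2. It was the widest site of the cluster in 5 libraries, all 4 of GF+HFM and CV+HFM replicate 1. The midpoint of a library's widest peak moved over 921 bp between libraries here and over at most 245 bp at any other site of the cluster.

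Before Apoa1, which encodes the main protein of high-density lipoprotein, 2 sites were separated by 193 bp. The first, from 46034884 to 46036122, lay between Sik3 and Apoa1 and was called in all 8 libraries. Here the peaks covered 648, 620, 1063 and 1239 bp in GF+HFM replicates 1 to 4 and 757, 385, 541 and 400 bp in CV+HFM replicates 1 to 4. The groups overlapped through CV+HFM replicate 1. Within its own list, the widest peak stood at the 90.1st to 96.9th percentile of width in GF+HFM and at the 93.2nd to 97.9th in CV+HFM. In CV+HFM replicate 4 it was the widest of the 5 cluster peaks, at 400 bp against at most 193 bp at the others.

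The start of Apoa1 itself, from 46036316 to 46036967 over exon 1 and part of intron 1, was called in 6 libraries. Widths were 599, 626, 464 and 555 bp in GF+HFM replicates 1 to 4, and 603 and 238 bp in CV+HFM replicates 1 and 3. CV+HFM replicates 2 and 4 had no peak there (Fisher's exact test, two-sided, p = 0.429), although both had a peak at the site 193 bp away. A site from 46038624 to 46039774, between the ends of the convergent genes Apoa1 and Apoc3, was called by the same 6 libraries. Its peaks were 642, 830, 1065 and 1062 bp wide in GF+HFM replicates 1 to 4, and 878 and 378 bp in CV+HFM replicates 1 and 3. In width these were among the upper peaks of the GF+HFM lists, at the 90.6th to 98.3rd percentile, and it was the only cluster site in the widest quartile of the GF+HFM sites that CV+HFM replicate 2 did not call.

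The start of Apoc3, which encodes the inhibitor of lipoprotein lipase, had a site from 46043078 to 46044405 over exon 1, part of intron 1 and the sequence before the gene. Summed widths of 1190, 959, 1029 and 1328 bp in GF+HFM replicates 1 to 4 stood beside 1114, 495, 1081 and 107 bp in CV+HFM replicates 1 to 4. CV+HFM replicates 1 and 3 were inside the GF+HFM range and CV+HFM replicates 2 and 4 below it. The widest peak lay at the 96.3rd to 99.4th percentile of its list in GF+HFM and at the 99.5th, 93.0th, 99.8th and 52.2nd percentile in CV+HFM replicates 1 to 4. In CV+HFM replicates 2 and 3 this was the widest site of the cluster.

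Between the starts of the divergent genes Apoc3 and Apoa4 lay 2 further intergenic sites, each called in 7 libraries and missing in CV+HFM replicate 4 (Fisher's exact test, two-sided, p = 1). The first, from 46045317 to 46046078 and 1878 bp before Apoc3, measured 618, 527, 605 and 723 bp in GF+HFM replicates 1 to 4 and 540, 149 and 564 bp in CV+HFM replicates 1 to 3. The second, from 46046534 to 46047430 and 1829 bp before Apoa4, measured 657, 479, 885 and 885 bp in GF+HFM replicates 1 to 4 and 548, 113 and 489 bp in CV+HFM replicates 1 to 3. At both, CV+HFM replicates 1 and 3 were within the range of the GF+HFM libraries and CV+HFM replicate 2 was below it.

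Apoa4, the enterocyte apolipoprotein of chylomicrons, carried 2 sites 208 bp apart, both called in all 8 libraries. At its start, from 46048427 to 46049409 over exon 1 and part of intron 1, peaks measured 641, 581, 623 and 983 bp in GF+HFM replicates 1 to 4 and 731, 396, 597 and 193 bp in CV+HFM replicates 1 to 4. The groups overlapped, with CV+HFM replicate 1 above 3 of the GF+HFM libraries. Midpoints at this site differed by at most 64 bp across the 8 libraries, the smallest spread among the 5 sites called in every library. The site in the body of the gene, from 46049618 to 46050521 over intron 2 and parts of exons 2 and 3, measured 646, 529, 904 and 805 bp in GF+HFM replicates 1 to 4 and 502, 202, 508 and 52 bp in CV+HFM replicates 1 to 4. Every CV+HFM value was below every GF+HFM value, although the widest CV+HFM peak, 508 bp, came close to the narrowest GF+HFM peak, 529 bp.

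Near Apoa5, the site closest to the gene start ran from 46073342 to 46074066, centered 3003 bp before it. Widths there were 516, 396, 448 and 689 bp in GF+HFM replicates 1 to 4 and 382, 206 and 259 bp in CV+HFM replicates 1 to 3, with no peak in CV+HFM replicate 4. All CV+HFM values, with 0 bp for the library without a peak, were below those of GF+HFM. This site and the one in the body of Apoa4 were the 2 of 17 cluster sites (11.8%) at which the groups did not overlap in this way, compared with 18.8% of all merged sites. The Apoa5 site was narrower in rank than those around Apoa4, at the 57.4th to 81.7th percentile of the GF+HFM lists. Beyond Apoa5, the site at the start of Bud13, from 46090693 to 46091213, was called in 7 libraries and measured 402, 428, 456 and 449 bp in GF+HFM replicates 1 to 4 and 370, 113 and 436 bp in CV+HFM replicates 1 to 3. This site also overlapped the end of Zfp259, and its shared bases lay between Zfp259 and Bud13.

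**Figure D2:**
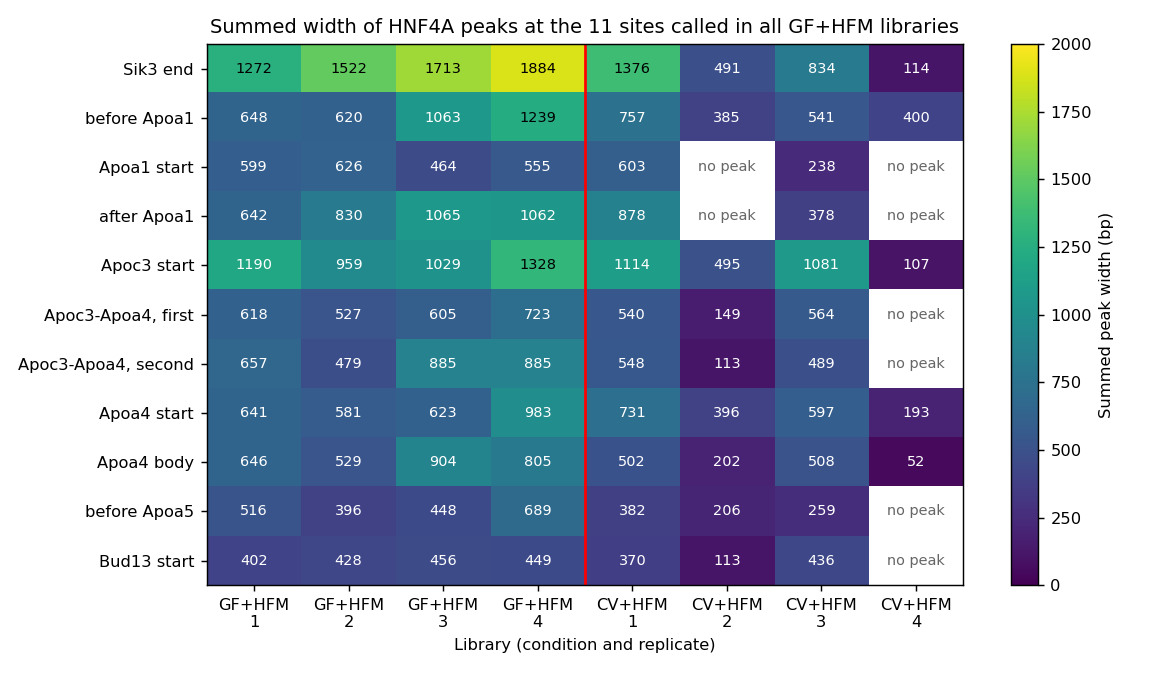
Summed width of HNF4A peaks in bp (color and number) at the 11 cluster sites called in all 4 GF+HFM libraries, in order along the chromosome, for each of the 8 libraries, with no peak where a library did not call the site. A red line divides GF+HFM from CV+HFM, and CV+HFM 1 stays near the GF+HFM widths while CV+HFM 4 has 5 values, from 52 to 400 bp.

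The other 6 sites were called in 4 libraries or fewer, and their peaks were 176 to 429 bp wide. In Sik3, the site in intron 20 was called in GF+HFM replicates 1, 3 and 4 and CV+HFM replicate 3, and a site in intron 17 in GF+HFM replicate 4 only. Beyond Apoa4, CV+HFM replicate 1 alone called sites of 429 and 195 bp, 59 bp apart, and GF+HFM replicate 3 alone called a site of 204 bp. The reference under that last peak was 89.2% A and G on the plus strand, a run of short purine repeats, and the peak stood at percentile 1.32 of width in its list. GF+HFM replicates 1 and 3 called a site of 254 bp between Apoa5 and Zfp259.

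Per library, the number of cluster sites called was 13, 11, 14 and 13 in GF+HFM replicates 1 to 4 and 13, 9, 12 and 5 in CV+HFM replicates 1 to 4. The means were 12.8 ± 1.26 and 9.75 ± 3.59 sites (SD, n = 4 each). The groups overlapped and the difference of -3 sites did not pass the threshold of 0.05 (exact permutation test, two-sided, p = 0.229). Without CV+HFM replicate 4 it was -1.42 sites (exact permutation test, two-sided, p = 0.429). Peaks covered 8241, 7497, 10033 and 11132 bp of the window in GF+HFM replicates 1 to 4 and 8425, 2550, 6101 and 866 bp in CV+HFM replicates 1 to 4. Mean coverage was 9226 ± 1658 bp (SD, n = 4) in GF+HFM against 4486 ± 3415 bp (SD, n = 4) in CV+HFM, a difference that did not pass the threshold of 0.05 (exact permutation test, two-sided, p = 0.0857). CV+HFM replicate 1 covered more of the window than GF+HFM replicates 1 and 2. Without this library the difference was -6053 bp (exact two-sided permutation p = 0.0286, the minimum for 4 mice and 3). Leaving out any other single library, it did not pass the threshold (exact permutation p = 0.0857 to 0.171). Without CV+HFM replicate 4 it was -3534 bp (exact permutation test, two-sided, p = 0.143).

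Relative to its own list, each CV+HFM library held more of its sites in the cluster than any GF+HFM library. The 17 sites took up 0.0373%, 0.0377%, 0.0426% and 0.0385% of all sites called in GF+HFM replicates 1 to 4. In CV+HFM replicates 1 to 4 they took up 0.0469%, 0.103%, 0.0609% and 0.122%. Means were 0.0391% ± 0.00241 and 0.0833% ± 0.0353 (SD, n = 4 each), and the groups did not overlap (exact two-sided permutation p = 0.0286, the minimum for 4 mice and 4). Without GF+HFM replicate 1, 2 or 3 the exact permutation p of this difference was 0.0857, and without GF+HFM replicate 4 it was 0.114. The CV+HFM lists were shorter, with 4533 to 29345 peaks against 31061 to 36846, and the share was highest in the shortest list. When only the 4533 widest peaks of a list were used, the share was 0.162% ± 0.0341 in GF+HFM against 0.155% ± 0.0301 in CV+HFM (SD, n = 4 each; exact permutation test, two-sided, p = 0.743). When peaks had to cover at least 50% of a site, it was 0.0450% ± 0.00558 and 0.0370% ± 0.0437 (SD, n = 4 each; exact permutation test, two-sided, p = 0.771), so the direction of this difference depended on which peaks were counted.

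**Figure D3:**
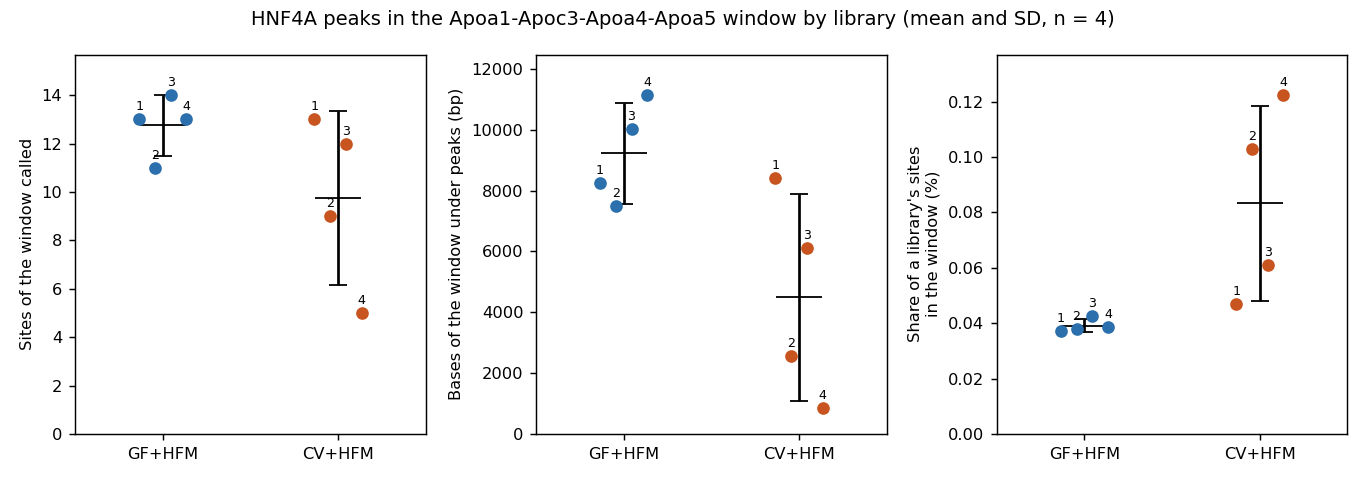
Sites of the window called, bases of the window under peaks and share of a library's sites that lie in the window, for each of the 8 libraries (points, numbered by replicate), with the mean and SD of each condition (n = 4). The groups overlap in the first 2 panels, and in the third each CV+HFM point, from 0.0469% to 0.122%, is above each GF+HFM point.

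Peak names carry an identifier, which has a final letter A for GF+HFM replicates 1 and 2 and CV+HFM replicates 1 to 3, and what the letter marks is not stated. Among these, the share of sites in the cluster averaged 0.0375% in 2 GF+HFM and 0.0703% in 3 CV+HFM libraries. Among those without the letter, it averaged 0.0406% in 2 GF+HFM libraries and was 0.122% in the single CV+HFM library. Covered bases averaged 7869 and 5692 bp with the letter, and 10582 and 866 bp without it.

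The share of the 17 cluster sites that a library called was near its share of all merged sites in GF+HFM replicates 1, 2 and 4, and higher in GF+HFM replicate 3 and in each CV+HFM library. In GF+HFM replicates 1 to 4 the library called 76.5%, 64.7%, 82.4% and 76.5% of the cluster sites and 76.4%, 64.0%, 72.1% and 74.0% of all sites. In CV+HFM replicates 1 to 4 it called 76.5%, 52.9%, 70.6% and 29.4% of the cluster sites and 60.8%, 19.2%, 43.3% and 8.97% of all sites. Width was uneven over the 17 cluster sites. Those that at least 1 GF+HFM library missed stood at width percentiles of 1.32 to 31.6. The exception was the 429 bp site of CV+HFM replicate 1, at 74.1. Of the 11 called in all 4 GF+HFM libraries, 8 fell in the widest quartile of the 23049 such sites, ranked by their average width percentile over GF+HFM, and 3 in the next. Of the 8 in the widest quartile, CV+HFM replicate 2 called 7 and CV+HFM replicate 4 called 5, while over that whole quartile these libraries called 74.2% and 44.8%. CV+HFM replicate 4 called 0 of the 3 cluster sites of the next quartile, where it called 16.5% of all sites. Median peak width in the cluster was 529 to 805 bp in GF+HFM and 548, 202, 489 and 114 bp in CV+HFM replicates 1 to 4, against medians over whole lists of 298 to 464 bp and of 318, 186, 274 and 103 bp.

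**Figure D4:**
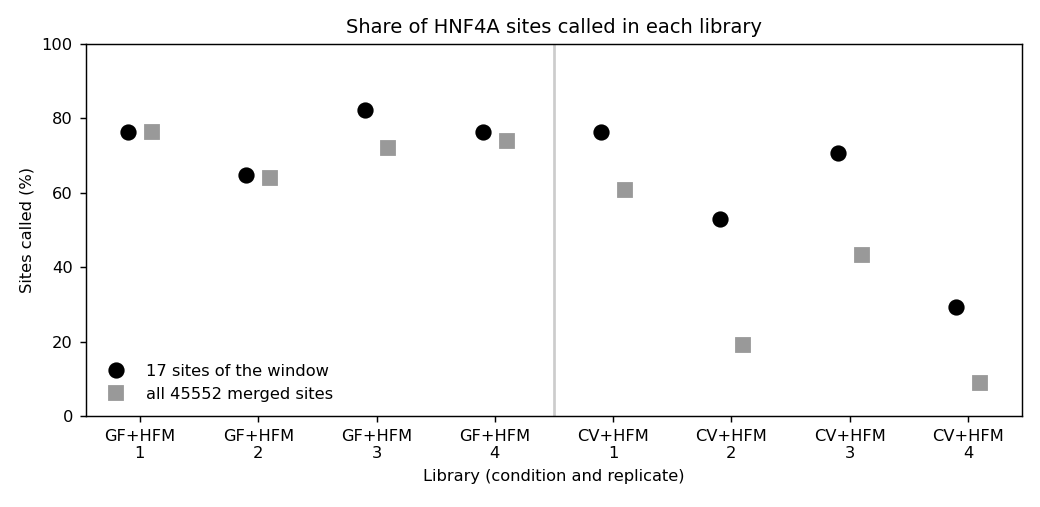
Percentage of the 17 cluster sites (black circles) and of all 45552 merged sites (gray squares) that each of the 8 libraries called. In GF+HFM 1, 2 and 4 the symbols lie close together, and in CV+HFM 2, 3 and 4 the cluster stands at 52.9%, 70.6% and 29.4% against 19.2%, 43.3% and 8.97%.

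To compare the cluster sites with other sites of the same library, the 3445 sites called in all 8 libraries were ranked by summed peak width within each library, and limma was run on normal scores of the ranks. Over these sites, 4 passed an adjusted p of 0.05, or 0.116%, and 0 of the 5 cluster sites were among them. At an unadjusted p of 0.05, 1 of the 5 cluster sites passed, where 12.5% of all tested sites did. That site was the start of Apoa4. Its rank percentile was 50.4, 56.8, 30.1 and 65.7 in GF+HFM replicates 1 to 4 and 72.2, 88.2, 74.9 and 68.1 in CV+HFM replicates 1 to 4. All CV+HFM libraries ranked it above all GF+HFM libraries, which was the case at 3.92% of the tested sites, and the opposite at 2.47%. The difference in normal score was 0.71 ± 0.32 (SE), with a limma p of 0.0435 and an adjusted p of 0.391 by Benjamini-Hochberg over the 3445 sites, so it did not pass the threshold. The unadjusted limma p was no longer under 0.05 without GF+HFM replicate 1, 2 or 3 or CV+HFM replicate 2, when 0 of the 5 sites passed.

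The remaining sites called in every library gave no adjusted p below 0.451 in limma. The body of Apoa4 moved the other way from the start of the gene, with rank percentiles of 51.3, 47.1, 67.8 and 43.7 in GF+HFM replicates 1 to 4 and 36.7, 30.3, 62.0 and 3.35 in CV+HFM replicates 1 to 4, but the groups overlapped (difference -0.66 ± 0.41 in normal score, SE; limma adjusted p = 0.484). The Sik3 end site ranked at 93.5 to 98.8 in GF+HFM and at 97.0, 94.6, 91.6 and 41.2 in CV+HFM replicates 1 to 4. At the Apoc3 start, percentiles were 77.6 to 91.6 in GF+HFM and 92.7, 94.8, 97.3 and 37.8 in CV+HFM replicates 1 to 4, and the mean normal scores of the groups differed by 0.05 ± 0.44 (SE; limma adjusted p = 0.966). CV+HFM replicate 4, with the shortest list, placed these 2 sites far lower than the other 3 CV+HFM libraries did. It placed the site before Apoa1 highest of all 8 libraries, at 96.4, against 67.2 to 86.7 in the other CV+HFM libraries and 51.6 to 83.0 in GF+HFM (limma adjusted p = 0.572).

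**Figure D5:**
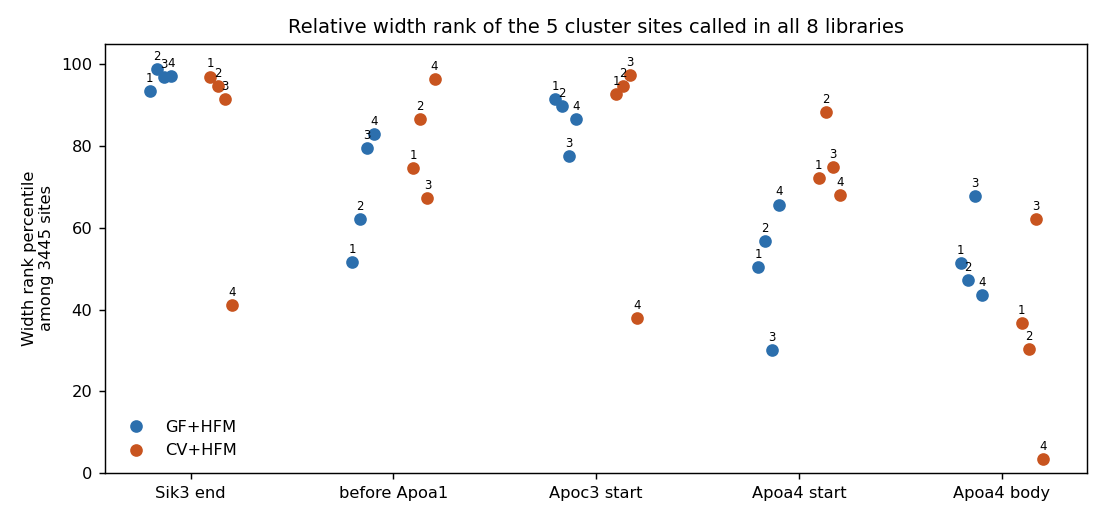
Percentile of summed peak width among the 3445 sites called in all 8 libraries, for the 5 cluster sites among them, in each library (points, numbered by replicate, blue GF+HFM and orange CV+HFM). At the Apoa4 start the CV+HFM points, from 68.1 to 88.2, are above the GF+HFM points, and at the other 4 sites the groups overlap.

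Seen by gene, the density of HNF4A sites was high around 3 of the 4 members. With 20 kb either side of the gene, Apoa1 and Apoc3 each had 14 sites and Apoa4 had 13, largely the same ones, since their windows overlap. The median over 22367 protein-coding genes was 2 sites. Each of the 3 windows held 5 sites called in all 8 libraries, and 18 protein-coding genes, these 3 included, had as many or more, while 83.2% of genes had 0. Per length, Apoa1 had 3.34 sites in each 10 kb, Apoc3 3.28 and Apoa4 3.04, above 99.9% or more of the genes. Apoa5 had 3 sites, or 0.693 in each 10 kb, above 78.5% of the genes.

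Of 12 other apolipoprotein genes, 10 had a site within the same distance, 9 had a site called in all 4 GF+HFM libraries and 8 had a site called in all 8. Of all protein-coding genes, 65.5%, 50.6% and 16.8% did. The nearest counterpart was the Apoe-Apoc1-Apoc4-Apoc2 cluster on chromosome 7, whose genes encode the remnant-clearing ligand APOE and the lipase regulators APOC1 and APOC2. Its window from 20236928 to 20304515 held 11 sites, with calls by every GF+HFM library at 6 and by all 8 libraries at 2. These 4 genes share most of their sites in the count above. GF+HFM libraries called 7 to 11 of these, and CV+HFM replicates 1 to 4 called 6, 4, 6 and 2. Apob, the structural protein of chylomicrons, had 6 sites, 4 of them with a call in every GF+HFM library and 1 with calls in all 8. Apoa2, another protein of high-density lipoprotein, had 3 sites, each called in all 4 GF+HFM libraries, and 1 of them in all 8. Apoo and Apool had 0 sites.

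Among all protein-coding genes with at least 8 sites outside the cluster, 2175 in number, those whose sites were called in the most similar shares over the 8 libraries included Itpr1, Erbb2, Pstpip2 and Slc7a7. Their shares differed from those of the cluster by 5.61, 6.18, 6.21 and 6.22 percentage points on average over the 8 libraries, where the median gene differed by 16.5 points. All points share the same 8 lists and their lengths. For context, the enterocyte genes Vil1, Fabp1, Fabp2, Sis, Lct, Alpi and Slc5a1 all had a site within 20 kb that all 4 GF+HFM libraries called. Of these 7, 5 had a site called in all 8 libraries. Of 8 genes of immune, mesenchymal, endothelial and crypt cells, 7 had a site, 5 had a site called in all 4 GF+HFM libraries and 0 had a site called in all 8. Of all protein-coding genes, 65.5%, 50.6% and 16.8% did. The genes of other cells were thus below all genes only for sites called in all 8. These short lists were not tested against other genes. Sites near a gene are not a measure of its expression.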

How the data were processed

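The authors mapped HNF4A ChIP-seq reads to mm9 with Bowtie2, called peaks in each mouse with MACS2 2.1.1.20160309 against input DNA (1 input library for each condition) with a bandwidth of 300 bp and a false discovery rate of 0.05, and deposited each mouse's list separately. The deposited values are positions, with no count, score, p-value or coverage. The depth of each library is therefore unknown, no counting interval can be given, and peak width served to rank peaks. A list with fewer reads or weaker enrichment can have fewer and narrower peaks. Mice without the meal were not analysed here.

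Groups followed the sample labels. The cluster, its gene lists and its tests were chosen with earlier results of these data known. Peaks were merged where they shared 1 bp, and sites within 20 kb of a member gene (GENCODE M1) were kept. All peaks of 21 chromosomes ended within the lengths of NCBIM37, from which the sequences were read. Exact permutation tests (70 relabellings) were used for numbers per library, Fisher's exact test (scipy 1.17.1) for calls and limma 3.58.1 (R 4.3.3) for ranks, adjusted by Benjamini-Hochberg at a threshold of 0.05. These steps were tested on simulated data. A width percentile is the position of a library's widest peak at a site in its own list. Sites called in all 4 GF+HFM or at least 2 CV+HFM libraries were described singly. Most similar genes were ranked by the mean absolute difference in the share of sites called, and 1 of the 5 is not reported here. Figures were drawn with matplotlib 3.10.9.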

Additional observations from a re-analysis of the deposited data

Results flagged for a closer look

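Of 22 sets of 4 values checked for a library far from the others, 1 stood apart. At the start of Apoa4, GF+HFM replicate 4 had a peak of 983 bp, while the other 3 GF+HFM peaks measured 581 to 641 bp, so that the gap to the next value was 0.851 of the range, above Dixon's 95% critical value for 4 samples. Chance gives such a gap in about 1 of 20 sets.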

How the results depend on the processing

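Leaving out 1 library at a time, the difference in cluster sites called ranged from -4.08 to -1.42 (exact permutation p = 0.0857 to 0.429), in covered bases from -6053 to -3534 bp (exact permutation p = 0.0286 to 0.171) and in share of a library's sites from 0.0312 to 0.0563 percentage points (exact permutation p = 0.0286 to 0.114). The share no longer passed the threshold without any 1 GF+HFM library. It was reversed with at least 50% of a site covered (-0.00800 points) and with the widest peaks of each list (-0.00699 points). Sites called in every library numbered 5 to 9 when 1 library was left out, with 9 of 17 (52.9%) without CV+HFM replicate 4, against 18.4% of all sites. With at least 50% covered they were 0 of 17, against 0.0439% of all sites. With no flank they were 3 of 4 (75%), against 7.56%. They were 1 of 14 (7.14%) with peaks of at least 300 bp, against 0.772%, and 3 of 11 (27.3%) with the widest peaks, against 8.03%. Apart from the replicate block, given next, the other planned combinations of these results with the alternatives (which included flanks of 10 and 50 kb, 200 bp windows at midpoints and, for the share, chromosomes 1 to 19, X and Y only) kept direction and side of the threshold. Wherever they were counted, 0 cluster sites were called in 4 GF+HFM and no CV+HFM libraries and 0 passed limma's adjusted threshold. With 50% covered, the rank test had 20 sites and 0 of them in the cluster. At an unadjusted limma p under 0.05 there was 1 cluster site with percentile scores, and 0 with the replicate block, with midpoint windows, with the widest peaks (3 cluster sites tested), with peaks of at least 300 bp (1 tested) and without GF+HFM replicate 1, 2 or 3 or CV+HFM replicate 2. The cause of these changes was not tested.

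With the replicate number as a block, the smallest exact p is 0.125 and the difference in share, 0.0442 points, had that value, past the threshold no longer. The p was 0.25 for sites and for bases, and 0 cluster sites passed limma. Same-numbered libraries deviated from their group means with correlations of 0.032, 0.102, -0.074 and 0.110 over sites, and no source says that a number pairs mice. With relabelling kept within libraries that have or lack the identifier letter A, chosen after the lists were seen, the exact p was 0.267 for sites, 0.1 for bases and 0.0333 for share. Peak lists without depth limit all of these comparisons to calls and widths.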
